A study of Mus musculus with 23 samples.

Results

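MHC class II high border macrophages are the macrophages of the brain's borders that carry abundant transcripts of the antigen-presenting MHC class II molecules. Members were chosen from the measured counts: a barcode needed UMIs of at least 2 of the 6 border macrophage genes Mrc1, Pf4, Cbr2, Ms4a7, Clec4n and F13a1, and more UMIs of these together than of 4 microglial genes (P2ry12, Tmem119, Siglech, Sall1) or of 4 endothelial and astrocyte genes (Cldn5, Flt1, Aqp4, Gja1). It also needed at least 6 UMIs of H2-Aa, H2-Ab1 and H2-Eb1 together and no UMI of Cd79a, Cd209a or Flt3. A UMI is a molecular tag that counts 1 captured RNA molecule. Of 249715 barcodes that passed the filters, 1096 were members (0.439%), and they made up 46.5% of the 2358 border macrophages found by the same genes. The other 1262 border macrophages had fewer than 6 MHC class II UMIs.

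The study followed where antibodies go in the mouse brain after an intravenous dose of 45 mg/kg, using the dye AF647 on the antibody and droplet single-cell RNA sequencing of cells sorted by it. ATV-TfR (DNP02_hIgG1_LALAPG_ATV35.23.2, labelled with Alexa647) binds the transferrin receptor and was given to mice of the genotype TfR mu/hu KI. ATV-CD98hc (DNP02 LALAPG LLB2-10-8 monovalent, labelled with Alexa647) binds CD98hc and was given to CD98hc mu/hu KI mice. The control IgG (DNP02_hIgG1_LALAPG_Alexa647), without a brain receptor arm, was given to C57BL/6J mice, so treatment and genotype coincide and cannot be told apart. All mice were 3.3 months old by the sample labels and were taken 24 hours after the dose, perfused with PBS, and their brains were used without olfactory bulbs, cerebellum, pons and medulla. Live cells were sorted into a negative, low, medium and high AF647 bin, with gates set on the ATV-TfR cells and used for every treatment. A pool joined 1 male with 1 female mouse, each treatment had 2 pools, and a pool gave 1 library per bin, except that the negative bin of control IgG had replicate 2 only. Libraries kept 526 to 20570 barcodes, and the members of a library summed to between 877 and 640187 UMIs. No source says that brain membranes or choroid plexus were taken or removed, so the anatomical place of a member is unknown.

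Border macrophages live along brain vessels, in the meninges and in the choroid plexus, and take up material from blood and fluid. MHC class II molecules are pairs of an alpha and a beta chain that show peptides from engulfed proteins to helper T cells. Their assembly needs the invariant chain Cd74, the peptide exchanger H2-DM and the protease Ctss, and their genes are switched on by the activator Ciita. Macrophages also bind antibodies through Fc receptors, and the LALAPG changes in all 3 antibodies are made to weaken that binding.

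The MHC class II count of border macrophages showed no gap at the threshold: 102 cells had 1 UMI, 30 had 5, 31 had 6, 31 had 7 and 97 had 8 to 11. No UMI of H2-Aa, H2-Ab1 or H2-Eb1 was present in 972 border macrophages, whereas members had a median of 39.5 and at most 480. Just below the threshold lay 69 cells with 4 to 5 UMIs (median depth 1767 UMIs), and just above it 62 members with 6 to 7 (median depth 1686). At 50 UMIs or more lay 484 members with a median depth of 3439 UMIs. These counts define the members and are a description.

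**Figure D1:**
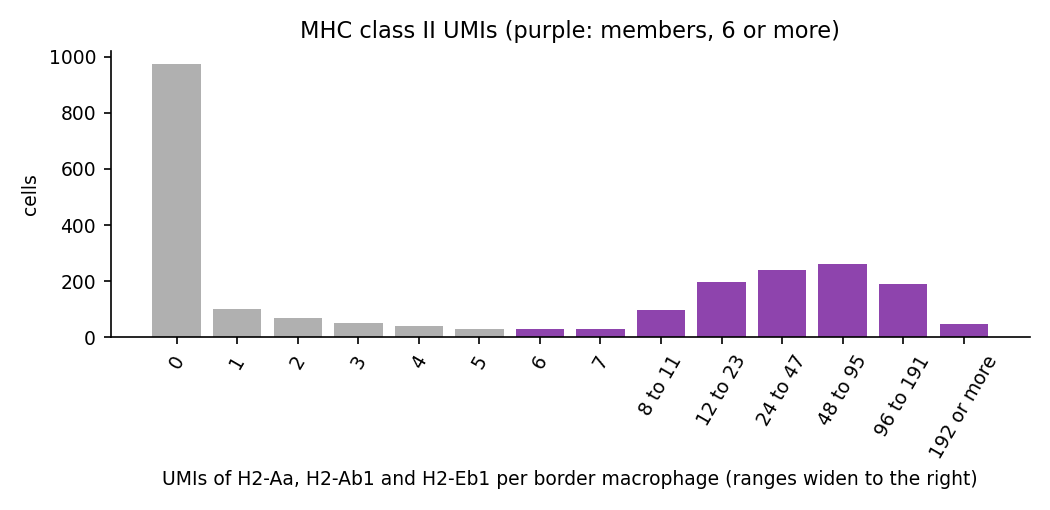
Number of border macrophages (y axis) by their UMIs of H2-Aa, H2-Ab1 and H2-Eb1 together (x axis, ranges that widen to the right). Purple bars are members and grey bars other border macrophages; 972 cells had no such UMI and 31 lay at the threshold of 6, and because the ranges widen, bars to the right cannot be read as a second peak.

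Of the markers checked first for this label, only Cd74 was not used by the rule. The rule genes H2-Aa (chr17:34282744-34287823, GRCm38.p6), H2-Ab1 (chr17:34263227-34269418) and H2-Eb1 (chr17:34305867-34316674), whose gene bodies lie side by side, are high by choice, and Cd74, which the rule did not use, had 15700 CPM (UMI counts scaled to a common library total of 1e6, mean over 6 pools) in members and 367 CPM in other border macrophages. The rule asks for UMIs of at least 2 of the 6 border macrophage genes, so their presence is no check, and 5 of them were lower in members than in the others in 6 of 6 pools (median log2 ratio of the 6 -1.66): the mannose receptor Mrc1 had 1290 against 2930 CPM and F13a1 370 against 1780 CPM, while Ms4a7 had 706 against 772 CPM. Genes of other immune cells were mixed, given here as CPM over all pools together. The dendritic cell genes Xcr1 and Ccr7, the B cell gene Ms4a1, the neutrophil gene Ly6g and the T or NK cell gene Gzma had no UMI in the 1096 members, and the monocyte gene Ly6c2 had 8. The other T or NK cell genes listed had UMIs in members (Nkg7 11, Trbc2 6, Cd3e 4 and Cd3d 1) and 0 CPM in the others. In ATV-TfR negative replicate 1 the T or NK cell genes summed to 158 CPM. The dendritic cell gene Clec9a stood at 3.33 CPM (others 0.959). Of the same lists, Wdfy4 stood at 140 CPM (others 151), Ighm at 245 CPM (others 191), Cd79b at 35.5 CPM (others 21.4), Dpp4 at 6.67 CPM (others 0.639) and the integrin Itgax at 19.7 CPM, above 0 CPM in the others and 9.29 CPM in microglia. The remaining dendritic cell genes were lower in members: Zbtb46 at 8.79 CPM (others 28.5), Fscn1 at 10.3 (28.5), Itgae at 0.303 (1.28) and Irf4 at 11.2 (12.8). Flt3, Cd209a and Cd79a are at 0 by the rule, which left out 45 barcodes, 30 of them with Flt3, 20 with Cd209a and 1 with Cd79a. The microglial gene P2ry12, which the rule holds down, stood at 155 CPM in members, against 2220 CPM in microglia. The median depth was 2457 UMIs and 1388 genes per member, and 1846 UMIs per other border macrophage.

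Some MHC class II genes share sequence letters close to their start. The 250 bases before the start of transcription are shown for H2-Aa and H2-Eb1, which chose the members, and for H2-DMb1, which did not. Sequences are from RefSeq (GRCm38.p6), 5′ to 3′ on the gene's own strand, and capitals mark the letters TGATTGG (the core of the Y box of MHC class II promoters). H2-Aa lies on the minus strand at chr17:34287824-34288073, H2-Eb1 on the plus strand at chr17:34305617-34305866 and H2-DMb1 on the plus strand at chr17:34152941-34153190.
H2-Aa: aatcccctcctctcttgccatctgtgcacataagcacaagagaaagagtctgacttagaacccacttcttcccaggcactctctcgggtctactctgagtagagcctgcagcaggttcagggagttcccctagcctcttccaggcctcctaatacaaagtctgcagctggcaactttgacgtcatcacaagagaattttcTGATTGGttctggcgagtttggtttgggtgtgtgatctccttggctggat
H2-Eb1: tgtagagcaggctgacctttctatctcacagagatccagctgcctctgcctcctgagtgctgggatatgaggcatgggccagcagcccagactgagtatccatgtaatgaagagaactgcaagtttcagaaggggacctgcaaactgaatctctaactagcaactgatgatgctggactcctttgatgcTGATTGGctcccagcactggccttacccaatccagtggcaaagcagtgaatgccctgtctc
H2-DMb1: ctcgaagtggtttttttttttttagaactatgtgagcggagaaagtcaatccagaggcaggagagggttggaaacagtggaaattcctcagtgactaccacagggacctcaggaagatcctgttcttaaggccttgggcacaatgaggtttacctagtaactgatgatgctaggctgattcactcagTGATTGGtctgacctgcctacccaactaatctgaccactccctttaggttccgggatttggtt
TGATTGG begins 50 bases before the start in H2-Aa, 61 in H2-Eb1 and 63 in H2-DMb1, and occurs on either strand in 2375 of all 32851 promoters of this length (7.23%). The promoter table also holds H2-Eb2, H2-DMb2, H2-Oa and H2-Ob, which have TGATTGG, and 2 entries of H2-DMa, which do not. H2-Ab1, Cd74 and Ciita are named only. A match is a description of letters, not of bound factors.

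Beside other border macrophages of the same pool, members held more transcripts of antigen presentation and chemokine genes and fewer of the genes of Lyve1-type border macrophages, the perivascular and meningeal form that carries the hyaluronan receptor Lyve1. Because the rule cut 1 population into 2, these ratios are given with no test. Of 4611 genes with at least 50 CPM, 487 were higher in members in 6 of 6 pools (10.6%) and 1046 lower in 6 of 6 pools (22.7%), with a median log2 ratio of -0.17 (of CPM + 10).

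Of the MHC class II presentation list, 8 of 13 genes were higher in 6 of 6 pools, 3 of them rule genes. Cd74 had 16200 and 15600 CPM in the members of ATV-TfR replicates 1 and 2, 14700 and 15500 CPM in those of ATV-CD98hc, and 20000 and 11900 CPM in those of control IgG, against 249 to 512 CPM in other border macrophages. The mean log2 ratio of Cd74 was 5.39 ± 0.34 (SD, n = 6 pools), and no pool's members overlapped with the others. H2-DMb1 and H2-DMa, the chains of the peptide exchanger, had ratios of 3.54 ± 0.39 and 2.55 ± 0.35, and the activator Ciita had 3.00 ± 0.31. Ctss, which trims the invariant chain, had a ratio of 1.21 ± 0.35. The costimulatory ligand Cd86 was the member of the list that was lower in 6 of 6 pools, at -0.39 ± 0.38.

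Ccr2, the chemokine receptor that brings monocytes out of bone marrow and into tissue (chr9:124101918-124109140, GRCm38.p6), had the largest ratio after Cd74 among genes outside the rule. Its level in members was 365 and 412 CPM in the ATV-TfR pools, 390 and 273 CPM in the ATV-CD98hc pools and 236 and 165 CPM in the control IgG pools. In other border macrophages it was 4.34 to 58.0 CPM, and the log2 ratio was 3.63 ± 1.06 (SD, n = 6). The populations did not overlap in any pool. Of other monocyte genes, Ly6c2, Chil3 and Plac8 stood at 2.43, 3.03 and 20.3 CPM in members and 19.8, 39.0 and 46.4 CPM in the others, and Fn1 at 31.5 and 28.1 CPM. The others also held more of the neutrophil genes S100a8 and S100a9 (162 and 243 CPM, against 1.21 and 1.52 CPM in members), and the part of such RNA in these levels was not tested.

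Other genes that stood higher in the members of every pool included the natural killer receptor family gene Klra2 (log2 ratio 2.42 ± 0.37), the SLAM receptor Slamf7 (2.53 ± 0.47), the transcription factor Runx3 (2.25 ± 0.25), the signalling regulator Rgs1 (2.93 ± 1.27) and the metalloprotease Mmp12 (2.29 ± 1.59). Plbd1, Ipcef1, AW112010 and Cyp4f18 had ratios between 2.25 and 2.78. Of 16 chemokine and chemokine receptor genes, 7 were higher in 6 of 6 pools and 2 lower. Among them the chemokine Ccl4 had a ratio of 2.26 ± 0.37, the scavenging chemokine Cxcl16 1.64 ± 0.49 and the fractalkine receptor Cx3cr1 0.88 ± 0.33. The cytokine Il1b was higher by 2.06 ± 0.97, and of 9 interferon-stimulated genes 3 were higher in 6 of 6 pools and 0 lower, with Ifi27l2a at 1.34 ± 0.21 and Bst2 at 0.37 ± 0.17.

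Of the 12 genes of the Lyve1-type list 9 reached 50 CPM in members or others, and these 9 were lower in members in 6 of 6 pools; 1 of them, Mrc1, is a rule gene. Lyve1 itself had 18.1 and 0 CPM in the members of the ATV-TfR pools, 2.89 and 63.6 CPM in those of ATV-CD98hc and 5.06 and 4.26 CPM in those of control IgG, against 195 to 362 CPM in the others. Its log2 ratio was -3.63 ± 1.16, with ATV-CD98hc replicate 2 closest to the others. The folate receptor Folr2 followed at -2.96 ± 0.50, the scavenger receptor Colec12 at -2.95 ± 0.68, the lectins Cd209f and Clec10a at -2.81 ± 0.98 and -2.41 ± 0.49, and the haemoglobin receptor Cd163 at -1.97 ± 0.24. A Cd163 UMI was found in 18.3% of members and 45.6% of the others (10.8% and 33.2% after thinning to 1000 UMIs, beside 0.0767% of microglia), and a Lyve1 UMI in 1.46% and 19.7% (0.633% and 14.1% after thinning, beside 0.0139% of microglia).

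Uptake genes were more often lower than higher in members, and iron genes went both ways. Of 15 scavenger and endocytic receptor genes, the rule genes Mrc1 and Clec4n included, 11 were lower in members in 6 of 6 pools, among them Stab1 (-1.62 ± 0.45), the adaptor Dab2 (-1.26 ± 0.31) and the engulfment receptor Mertk (-1.07 ± 0.39), while its relative Axl was higher (1.37 ± 0.25). Of 11 iron genes 5 were lower and 2 higher in 6 of 6 pools: the iron exporter Slc40a1 had a ratio of -3.22 ± 0.37 and the iron store Fth1 one of 0.90 ± 0.29. Of 19 lysosomal genes, 10 were lower and 5 higher, with Ctsl at -1.04 ± 0.30 and Psap at 0.83 ± 0.24. Ccl24, Fcna, Tslp, Ripor2, Anapc15, 5033421B08Rik and Gm10790 were also among the 15 lowest, as were the pericyte marker Vtn (-3.19 ± 1.02) and the choroid plexus gene Ttr (-2.55 ± 1.00); the source of these transcripts was not tested.

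**Figure D2:**
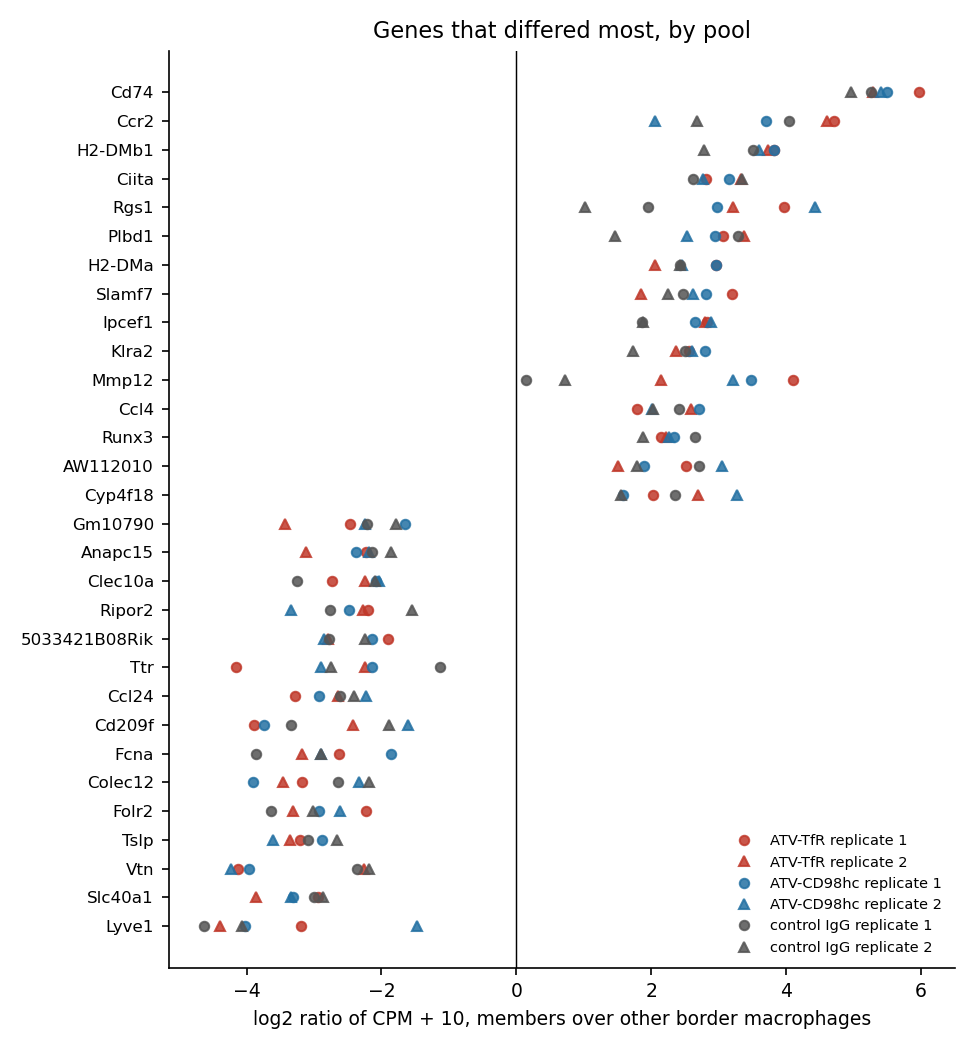
Log2 ratio of CPM + 10 in members over other border macrophages of the same pool (x axis) for the 15 genes outside the rule with the highest and the 15 with the lowest mean ratio (y axis). Each point is 1 of 6 pools; Cd74 and Ccr2 lie highest and Lyve1 lowest, with every point of a gene on the same side of 0.

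Female and male cells were told apart by Xist and 4 Y-linked genes. Among members with a call, 502 were female and 255 male (66.3% female), beside 60.8% of other border macrophages and 58.8% of all kept barcodes. The female share of members ran from 54.5% in control IgG replicate 1 to 75.6% in ATV-TfR replicate 1. It lay above that of other border macrophages in 4 of 6 pools and above that of all kept barcodes in 6 of 6.

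The next comparison asked how members were spread over the AF647 bins, which separate cells by their AF647 signal in the sorter. In control IgG the members rose with the signal until they were among the main cells of the high bin. Their share of kept barcodes was 0.0986% in the negative library, 1.34% and 1.01% in low, 12.2% and 6.49% in medium, and 46.8% and 30.9% in high (replicates 1 and 2). The 2 high libraries lay above every other library of the series, with a mean of 38.8% ± 11.2 (SD, n = 2). In ATV-CD98hc the share was 0.105% and 0.0288% in negative (7 cells and 1 cell), 0.116% and 0.111% in low, 0.0956% and 0.0972% in medium, and 0.604% and 0.351% in high. In ATV-TfR it was 0.345% and 0.3% in negative, 0.130% and 0.0665% in low, 0.249% and 0.130% in medium, and 0.194% and 0.165% in high, where the negative libraries were highest.

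Cell numbers per class were tested with edgeR's quasi-likelihood test, with the kept barcodes of a library as offset and adjustment over 11 cell classes. From the negative to the high bin, members rose by 8.60 ± 0.76 (log2, SE) in control IgG (adjusted p = 1.95e-12), where the negative bin is 1 library with 12 members that is assumed to vary like the other groups, and by 2.61 ± 0.62 in ATV-CD98hc (adjusted p = 0.000226). In these contrasts 90.9% and 81.8% of the classes changed. In ATV-TfR the change of -0.85 ± 0.47 did not pass the threshold (edgeR adjusted p = 0.0908; 81.8% of the classes changed). It did pass, as a fall, with members set at 12 or more MHC class II UMIs (-1.27, adjusted p = 0.0287) and with barcodes thinned to 2000 UMIs (-1.76, adjusted p = 0.0102), both with edgeR. The difference between ATV-TfR and ATV-CD98hc was -3.45 ± 0.79 (edgeR adjusted p = 0.000270, with 45.5% of the classes differing), and it was -2.49 ± 1.46 in male cells alone (adjusted p = 0.185) and -5.33 ± 1.15 in female cells alone (adjusted p = 0.000127). The ATV-CD98hc change was 4.69 ± 0.96 in female and 2.41 ± 1.04 in male cells. The difference between the sexes was not tested. In the ATV-CD98hc negative bin only 1 female and 3 male members had a call, all in replicate 1, so the values by sex rest on these cells. Other border macrophages changed by 7.79 ± 0.77 (control IgG), 3.08 ± 0.69 (ATV-CD98hc) and 1.32 ± 0.58 (ATV-TfR), all of which passed the test, the first again against 1 negative library.

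A share of all barcodes falls when another class fills the library, and endothelial cells rose by 6.00 ± 0.28 from the negative to the high bin of ATV-TfR and by 5.91 ± 0.29 in ATV-CD98hc. With endothelial cells left out of the offset, members rose by 3.4 ± 0.44 with ATV-TfR (edgeR adjusted p = 5.2e-07), by 6.69 ± 0.54 with ATV-CD98hc and by 8.23 ± 0.68 with control IgG. The sign of the ATV-TfR value therefore turned with the cells counted as the whole, and the difference between both ATVs kept its sign, at -3.29 ± 0.72.

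Within border macrophages, members had lower shares in the low than in the negative and high libraries, and the medium bin differed by treatment: near the low bin in both ATV treatments and near the negative library in control IgG. In ATV-TfR they were 83.8% and 74.1% of border macrophages in negative, 41.2% and 26.7% in low, 32.3% and 31.7% in medium, and 44.7% and 47.5% in high. In ATV-CD98hc they were 70.0% and 33.3% of only 10 and 3 cells in negative, 26.6% and 30.1% in low, 22.1% and 28.6% in medium, and 50% and 57.3% in high. In control IgG they were 54.5% in the negative library, 17.3% and 19.7% in low, 57.5% and 47.7% in medium, and 69.5% and 65.3% in high. The high library lay above the low library in 6 of 6 pools, and the negative above the low in each of the 5 pools that have both. The exact 95% binomial interval, which covers counting error only, was 68.0% to 93.8% for the negative and 27.6% to 55.8% for the low library of ATV-TfR replicate 1.

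No straight trend of this share over bins passed the test. The slope of its logit per bin was -0.44 for ATV-TfR (two-sided exact permutation p = 0.133, adjusted over 3 trends 0.271), -0.0097 for ATV-CD98hc (exact permutation p = 0.971, adjusted 0.971) and 0.50 for control IgG (exact permutation p = 0.181, adjusted 0.271). A slope does not measure a fall followed by a rise.

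**Figure D3:**
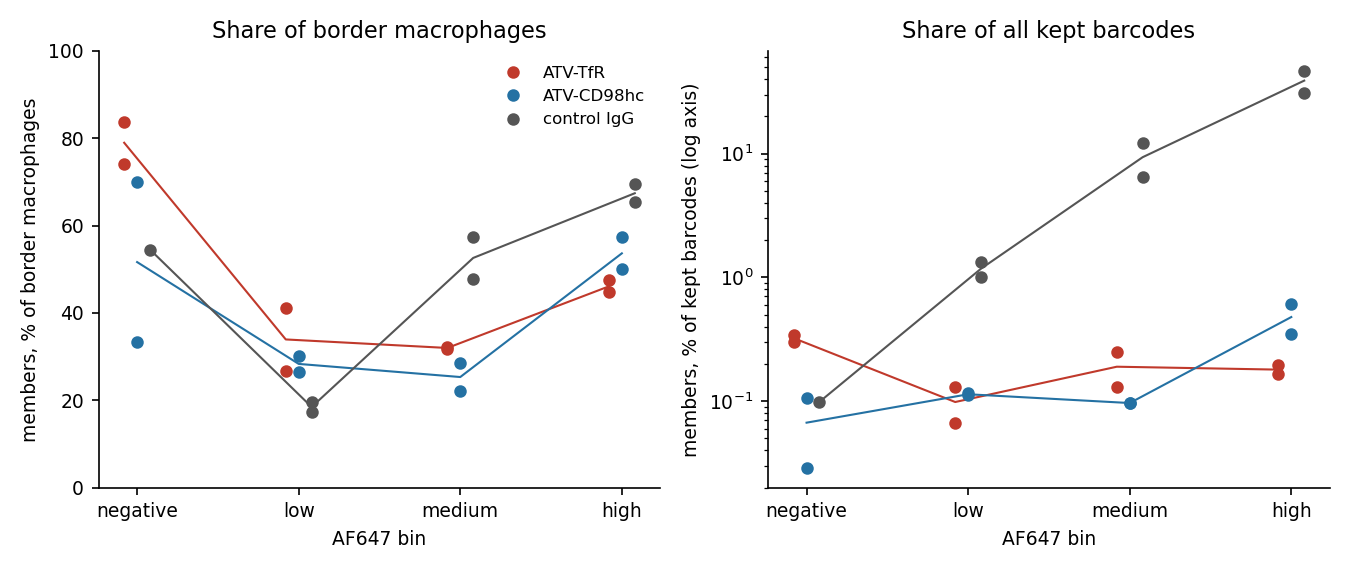
Members as a percent of border macrophages (left, linear axis) and of all kept barcodes (right, log axis) by AF647 bin (x axis). Points are libraries and lines join bin means of a treatment; on the right, control IgG climbs from 0.0986% to 46.8% and 30.9%, and on the left the low bins lie below the high bins in every pool.

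The members of different bins were not alike. Averaged over the 3 treatments, Ccr2 and genes such as S100a6, Anxa2, Ahnak and Mgl2 fell with rising AF647 signal, and the interferon-inducible genes Iigp1 (a GTPase) and Oasl2 and the activating Fc receptor Fcgr4 rose. For this, the slope of log2 CPM on the bin number was fitted within each treatment with edgeR on the UMIs of the members summed per library, in the 18 libraries with at least 20 members, and the mean of the 3 slopes was tested. This fit was chosen after seeing the data, because the negative bins of ATV-CD98hc and control IgG held too few members. Of 3507 genes tested, 135 rose (3.85%) and 167 fell (4.76%, together 8.61%) at an edgeR adjusted p under 0.05. DESeq2 called 364 and gave 408 genes no adjusted p. Of the edgeR calls, 22 of the 135 and 83 of the 167 were at least 2-fold more abundant in another cell class of the same libraries than in all border macrophages together, members and others, which is the base of this count in every comparison here. The other classes were microglia, endothelial cells, astrocytes, oligodendrocytes, mural cells, fibroblasts, choroid plexus or ependymal cells and other leukocytes. Monocytes and dendritic cells had no class of their own. The other leukocyte class held few UMIs: among the marker genes checked, its lowest level above 0 was 22.6 CPM. It held 19200 CPM of the neutrophil gene S100a9 and 2190 CPM of the B cell gene Cd79a. Low levels in that class therefore rest on few UMIs.

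Ccr2 fell by 0.763 per bin on the log2 scale (mean slope -0.76 ± 0.21, SE, edgeR adjusted p = 0.0271). Its level was 673 and 642 CPM in the negative, 330 and 337 CPM in the low, 303 and 186 CPM in the medium and 0 and 312 CPM in the high bins of ATV-TfR. In ATV-CD98hc it was 643 and 621 CPM in low, 507 and 164 CPM in medium and 155 and 104 CPM in high. In control IgG it was 845 CPM in the 12 members of the negative library, 310 and 41.5 CPM in low, 354 and 174 CPM in medium and 178 and 103 CPM in high. High libraries were below the negative library in every pool that had one with 12 or more members, while the low libraries of control IgG lay on both sides of its high libraries.

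The call on Ccr2 was lost without ATV-CD98hc replicate 1, ATV-CD98hc replicate 2 or control IgG replicate 1, with slopes of -0.90 to -0.57 over the pools left out and edgeR adjusted p up to 0.242. The slope was -0.76 ± 0.25 for ATV-TfR, -1.28 ± 0.39 for ATV-CD98hc and -0.25 ± 0.41 for control IgG, and no treatment passed alone.

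Members of the high bins held fewer UMIs, with medians of 4004 and 3986 in the negative and 1538 and 2066 in the high bin of ATV-TfR, so the share of members with a Ccr2 UMI was also taken after thinning each cell to 1000 UMIs. It was 45.9% and 43.9% in the negative bin of ATV-TfR and 0% and 9.08% in its high bin, where 37 and 29 members were deep enough. In ATV-CD98hc it was 30.5% and 42.0% in low and 8.83% and 6.72% in high. In control IgG it was 46.7% in the negative library, 18.3% and 2.45% in low, 24.2% and 13.6% in medium and 9.5% and 5.26% in high. Without thinning the share was 71.0% and 70.0% in the negative and 0% and 13.8% in the high bin of ATV-TfR. Over all libraries the thinned share was 13.9% in members, 0.591% in other border macrophages, 0.646% in microglia and 0.0350% in endothelial cells, at median depths of 2457, 1846, 3128 and 3476 UMIs.

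S100a6 and S100a4, calcium-binding proteins abundant in monocytes and migrating cells, had slopes of -1.94 ± 0.38 and -2.06 ± 0.42 per bin (edgeR adjusted p = 0.00434 and 0.00548). S100a6 stood at 193 and 128 CPM in the negative, 370 and 712 CPM in the low, 144 and 31.1 CPM in the medium and 0 and 0 CPM in the high bins of ATV-TfR. The low values came from 1 of 21 and 2 of 12 members, and the second of these libraries had too few members to enter the fit. The high libraries of ATV-CD98hc held 6.19 and 8.00 CPM and those of control IgG 1.56 and 5.00 CPM, below every library of the other bins with at least 20 members. Few cells carried these transcripts: a UMI of S100a6 was found in 4.47% of members and one of S100a4 in 2.74%. Both calls were lost without ATV-CD98hc replicate 1 or control IgG replicate 1, with edgeR adjusted p up to 0.200 for S100a6 and 0.146 for S100a4.

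Ahnak, a large scaffold protein, and Mgl2, a galactose-binding lectin of macrophages and dendritic cells (chr11:70130125-70137542), fell under every alternative run for them. Their slopes were -1.06 ± 0.17 and -0.91 ± 0.14 (edgeR adjusted p = 0.00122 and 0.00111, at most 0.0347 and 0.0484 over the alternatives). Mgl2 had 358 and 702 CPM in the negative and 91.8 and 180 CPM in the high bins of ATV-TfR, 632 and 286 CPM in the low and 80.4 and 152 CPM in the high bins of ATV-CD98hc, and 266 and 282 CPM in the low and 111 and 41.7 CPM in the high bins of control IgG. The high libraries were the lowest of both ATV treatments, and those of control IgG overlapped with its medium libraries (144 and 90.5 CPM). The lectin Clec4b1 (-1.06 ± 0.22), the actin-capping protein Capg (-1.17 ± 0.31), Anxa2 (-1.15 ± 0.27) and its partner S100a10 (-1.08 ± 0.28) also fell, and each lost the call without ATV-CD98hc replicate 1 and at least 1 control IgG pool. Without ATV-CD98hc replicate 1 the S100a10 slope was -0.40 (edgeR adjusted p = 0.714). Of the 10 genes with the largest falls, 7 were at least 2-fold more abundant in another cell class than in all border macrophages: Ptgds and Scd2 (17800 and 2650 CPM in oligodendrocytes), S100a6, S100a10 and Capg (1200, 587 and 113 CPM in other leukocytes), Anxa2 (531 CPM in fibroblasts) and Ahnak (630 CPM in endothelial cells). S100a4, Clec4b1 and Mgl2 were not, but without a class for monocytes or dendritic cells the part of such cells in these genes was not tested. Against members alone, which held 71.3 CPM of Capg over these libraries, Capg would not be counted.

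Iigp1 had the largest rise, 1.43 ± 0.23 per bin (edgeR adjusted p = 0.00124), and passed under each of its 13 alternatives. It stood at 7.16 and 0 CPM in the negative, 7.22 and 46.6 CPM in the medium and 126 and 132 CPM in the high bins of ATV-TfR. In ATV-CD98hc it was at 0 and 0 CPM in low, 134 and 65.6 CPM in medium and 111 and 88.0 CPM in high, and in control IgG at 88.6 and 16.6 CPM in low, 73.9 and 62.7 CPM in medium and 119 and 157 CPM in high. The high libraries of ATV-TfR and control IgG lay above the other libraries of their treatment. Endothelial cells also express Iigp1 (81.6 CPM), and the summed level of 8 endothelial markers in members was 222 to 240 CPM in the negative and 1320 to 1940 CPM in the high bins of ATV-TfR, 278 to 323 CPM in the low, 3300 CPM in the medium and 514 to 1830 CPM in the high bins of ATV-CD98hc, and 340 to 432 CPM in the low and 175 to 192 CPM in the high bins of control IgG. Cldn5 and Flt1, among these 8 markers, are held down in members by the rule. The part of endothelial RNA in the ATV values was not tested.

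Of 9 interferon-stimulated genes tested, 2 rose and 0 fell, with Oasl2 at 0.60 ± 0.11 (edgeR adjusted p = 0.00277), and the median slope of the list was 0.19, beside 0.0013 over all genes tested. The summed level of all 15 genes of the list overlapped between the lowest and highest bins fitted. It was 2650 to 3120 CPM in the negative and 2600 to 4150 CPM in the high bins of ATV-TfR. From low to high it went from 2810 to 3550 CPM to 2620 to 4420 CPM in ATV-CD98hc. In control IgG it was 2680 to 3350 CPM in low and 2760 to 3930 CPM in high. Rad51b, a DNA repair gene (1.09 ± 0.14), the metalloproteases Adam33 (0.95 ± 0.15) and Adam19 (0.79 ± 0.11), and Gm4951 (0.94 ± 0.11) rose and passed under each of their 14 alternatives. The other genes among the 10 largest rises were Fer, Pde3b, Dlc1, Tbc1d4 and Frmpd4, of which Fer and Pde3b also passed under all alternatives.

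**Figure D4:**
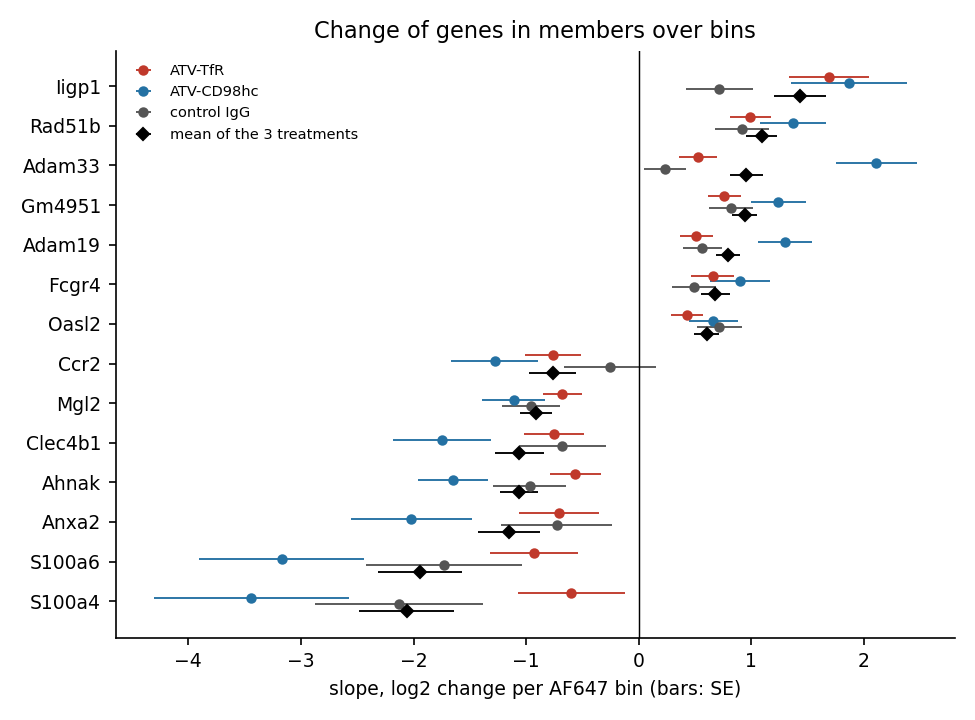
Slope of log2 CPM per AF647 bin in members (x axis, bars are standard errors) for 14 named genes (y axis). Coloured points are single treatments and black diamonds the mean of 3; Iigp1 has the highest mean (1.43) and S100a4 the lowest (-2.06), and treatments differ in size more than in sign.

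Most pathway lists moved little over the bins. Among 6 Fc receptor genes 1 rose, Fcgr4 (0.68 ± 0.13, edgeR adjusted p = 0.00339, lost without control IgG replicate 2 at 0.0589), and the median slope was 0.03. Of 12 MHC class II presentation genes, 3 of them rule genes, Cd86 rose (0.34 ± 0.10) and the thiol reductase Ifi30 fell (-0.45 ± 0.12). Of 12 chemokine and receptor genes 1 rose and 1 fell, the latter Ccr2. Of 13 scavenger and endocytic receptor genes Stab1 rose (0.45 ± 0.13), of 9 complement genes the receptor C5ar1 rose (0.37 ± 0.10), of 10 immediate early genes Jun fell (-0.52 ± 0.13), of 19 lysosomal genes Ctsz, Lamp1 and Npc2 fell (-0.35 to -0.26), and of 7 iron genes Fth1 fell (-0.31 ± 0.09). The 9 calls named here other than Fcgr4 and Ccr2 were each lost without 2 or more of the pools. No gene of the Lyve1-type, inflammatory cytokine, lipid or microglial lists and none of the 4 tested partners of the dosed receptors passed. The rule holds P2ry12, Tmem119, Siglech and Sall1 of the microglial list down in members, and Mrc1 of the Lyve1-type list is a rule gene.

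Ribosomal protein genes took part in the fall. Of 82 tested, 62 fell and 0 rose, with a median slope of -0.41. Their summed level was 158000 to 161000 CPM in the negative and 51600 to 97700 CPM in the high bins of ATV-TfR, 139000 to 144000 CPM in the low and 65000 to 87200 CPM in the high bins of ATV-CD98hc, and 87300 to 113000 CPM in the low and 63500 to 96100 CPM in the high bins of control IgG. The median depth per member and this level moved with the bins together with every gene above, and their part in those slopes was not tested.

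Leaving out ATV-CD98hc replicate 1 reduced the count from 302 to 23 genes (14 higher and 9 lower), and it was 142 without ATV-TfR replicate 1, 129 without the first and 106 without the second control IgG pool. All 302 genes kept their direction under each alternative, and 18 passed in all of them, 9 that rose and 9 that fell: Adam19, Adam33, Ahnak, Cd9, Eif1, Fer, Gm4951, Iigp1, Mgl2, Oasl2, Pde3b, Plcl1, Rad51b, Rnf213, Rpl17, Rpl23, Rps14 and Rps3a1.

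**Figure D5:**
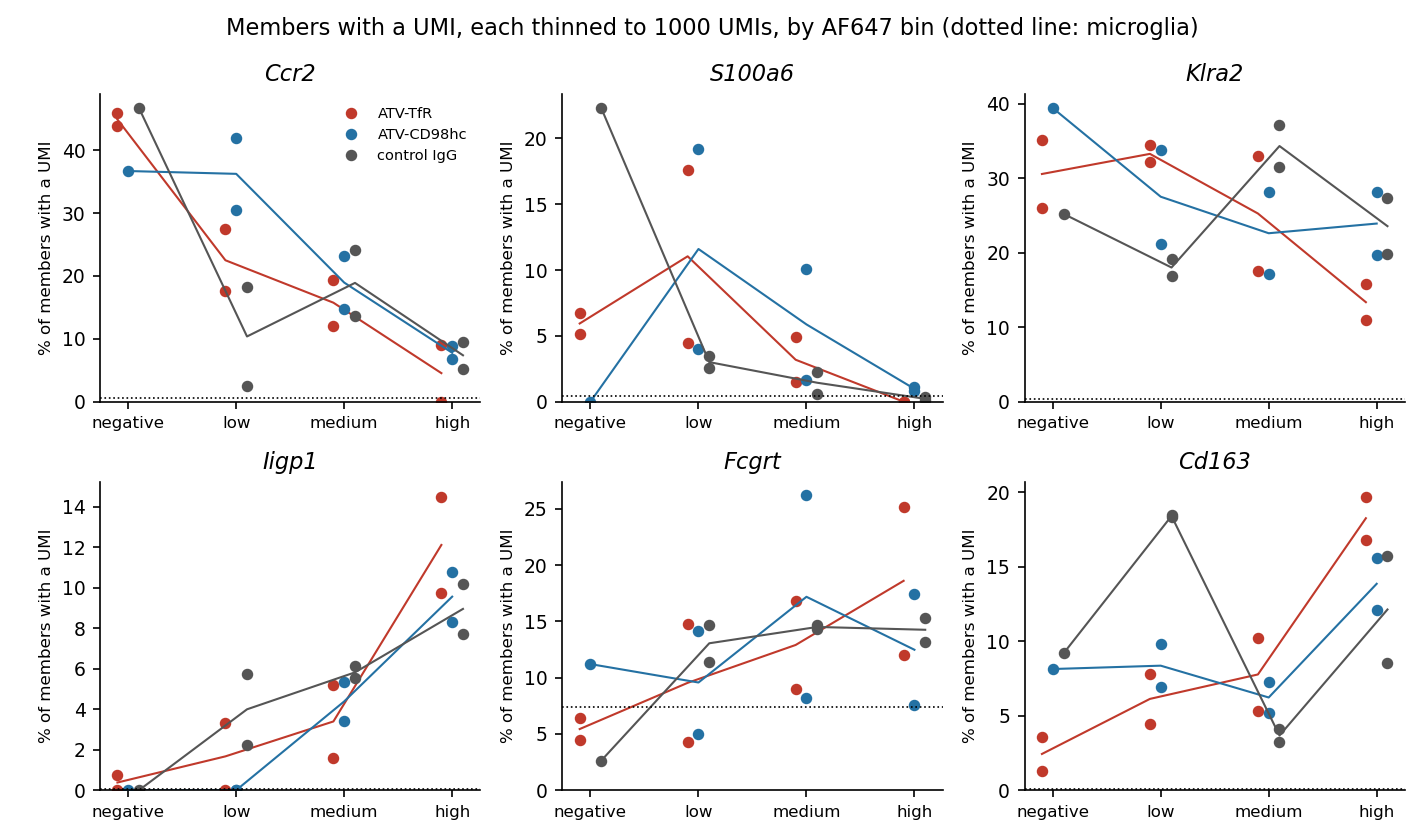
Percent of members with a UMI of 6 genes after thinning each member to 1000 UMIs (y axis) by AF647 bin (x axis), in libraries with at least 7 such members. Points are libraries, lines join bin means and the dotted line is the share in microglia; Ccr2 is at 45.9% and 43.9% in the negative and 0% and 9.08% in the high bin of ATV-TfR, and Iigp1 is highest in the high bins.

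ATV-TfR was the treatment with enough members in both end bins for a direct comparison. From the negative to the high bin, 78 of 5103 genes rose (1.53%) and 159 fell (3.12%, together 4.64%) in members (edgeR adjusted p under 0.05). DESeq2 called 118 and gave 2572 of the 5103 genes no adjusted p. Ccr2 changed by -2.33 ± 0.61 (log2, SE, edgeR adjusted p = 0.0177), but by -1.26 without ATV-TfR replicate 1 and -10.20 without ATV-TfR replicate 2, where the remaining high library held no Ccr2 UMI. Cd163 rose by 2.74 ± 0.72 (edgeR adjusted p = 0.0183), from 28.6 and 8.56 CPM to 172 and 144 CPM, and the groups did not overlap. The scavenger receptors Stab1 and Dab2 rose by 1.80 ± 0.39 and 1.16 ± 0.35, the cholesterol exporter Abca1 by 1.48 ± 0.42 and Cd86 by 1.68 ± 0.43. The neonatal Fc receptor Fcgrt, which returns IgG from endosomes to the surface, rose by 2.13 ± 0.55 (edgeR adjusted p = 0.0177), and a thinned Fcgrt UMI was found in 4.42% and 6.44% of members in the negative and 12.0% and 25.2% in the high bin. Endothelial cells carry more Fcgrt (586 CPM), and their markers rose in the same libraries. The immediate early genes Jun and Fos fell by 1.91 and 3.48 on the log2 scale (edgeR adjusted p = 0.0107 for each).

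Transcripts of neighbouring cell types moved with these bins. Of the 237 called genes, 35 of those that rose and 118 of those that fell were at least 2-fold more abundant in another class. All 6 oligodendrocyte markers fell and 4 of 7 endothelial markers rose. Of the endothelial list, Cldn5 and Flt1 are held down in members by the rule. The summed level of the oligodendrocyte markers in members was 3580 to 7320 CPM in the negative and 12.0 to 34.4 CPM in the high bins. Their part in the change of other genes was not tested. Barcodes of high doublet score made up 6.45% and 25.0% of the members in the negative libraries and 0% and 0% in the high libraries. With 1 ATV-TfR pool left out each of these bins is 1 library, the spread comes from the other groups, and a lost call says little about stability. The count was 37 genes without ATV-TfR replicate 1, 42 without ATV-TfR replicate 2 and 1 without the barcodes of high doublet score, which took ATV-TfR negative replicate 2 under 20 members. Ccr2, Cd163, Stab1, Cd86, Fcgrt, Abca1, Jun and Fos each lost the call without these barcodes and without ATV-TfR replicate 1, and all of them but Ccr2 also without ATV-TfR replicate 2, with edgeR adjusted p up to 0.601. The Ccr2 call was also lost with DESeq2 and at a mean of at least 50 CPM, the calls on Fos and Abca1 also with DESeq2, and that on Cd163 also at 12 or more MHC class II UMIs. Without ATV-TfR replicate 2 Fcgrt changed by 1.26, and without ATV-TfR replicate 1 Cd86 changed by 0.97. The Dab2 call was lost under 10 of 14 alternatives. Chga, a granule protein of endocrine cells, had the largest fitted rise (9.73 ± 1.67) but rested on 1 library, with 1300 CPM in the high bin of replicate 1, 12.0 CPM in that of replicate 2 and 0 CPM in the negative bins.

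In ATV-CD98hc and control IgG the high bin was compared with the medium bin, since the negative bins held under 20 members per library. In ATV-CD98hc, where medium replicate 1 held 17 members and was left out, the medium bin was 1 library that is assumed to vary like the other groups, so this comparison has no replicate in that bin. There 0 of 5103 genes passed with edgeR (0.0%), 273 had an unadjusted p under 0.05 and DESeq2 called 0; with the pool as a replicate block 2 passed. In control IgG 0 rose (0.0%) and 11 fell (0.216%), all 11 at least 2-fold more abundant in another class, DESeq2 called 0, and with the pool as a replicate block 20 passed. They included Ttr, the product of choroid plexus epithelium (-6.64 ± 1.14), and Clu (-5.73 ± 0.87), and without control IgG replicate 1, whose medium library held 11200 CPM of Ttr, 1 gene passed and the values were -1.53 for Ttr and -2.58 for Clu, each bin then being 1 library.

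Between treatments, members were compared over the 6 pools with all bins summed, so a pool's mixture of bins enters the result: the negative bin gave 31 of 130 and 20 of 81 members in the ATV-TfR pools, and the high bin 246 of 360 and 224 of 327 members in the control IgG pools. In ATV-TfR against control IgG 381 of 7214 genes were higher (5.28%) and 40 lower (0.554%, together 5.84%) with edgeR, and DESeq2 called 273. Of these, 376 and 27 were at least 2-fold more abundant in another cell class. All 6 oligodendrocyte and all 8 astrocyte markers were among the higher genes, where the rule holds the astrocyte markers Aqp4 and Gja1 down in members. Of the 10 lower genes with the largest change, 9 were most abundant in fibroblasts among the other classes, led by Adam12 (-3.17), Alpl (-3.14) and Igfbp7 (-2.94), and 2 of 3 fibroblast markers tested, Dcn and Lum, were lower. The summed fibroblast markers in members stood at 112 to 439 CPM in the control IgG libraries and at 0 to 24.0 CPM in those of ATV-TfR but for 449 CPM in low replicate 1. The part of oligodendrocyte, astrocyte and fibroblast RNA in other differences was not tested.

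Immune genes were the smaller part. Il1b, an inflammatory cytokine that other leukocytes hold at 2440 CPM, was at 109 and 113 CPM in ATV-TfR and at 390 and 209 CPM in control IgG (log2 difference -1.38 ± 0.31, edgeR adjusted p = 0.00425). The chemokines Ccl4 (-1.17 ± 0.31) and Ccl8 (-2.20 ± 0.55) and the Fc receptor Fcgr4 (-1.20 ± 0.31) were also lower in ATV-TfR, and Ccr2 was higher (1.01 ± 0.27, edgeR adjusted p = 0.0213). In the high bins alone 7 genes passed, and the difference was 0.14 ± 0.55 for Ccr2, -1.38 ± 0.43 for Il1b, -0.50 ± 0.41 for Ccl4 and -0.57 ± 0.45 for Fcgr4, none of which passed. The Il1b call was also lost without control IgG replicate 1 (edgeR adjusted p = 0.0729), the Ccr2 call without either ATV-TfR pool or control IgG replicate 2 (up to 0.263), the Ccl4 call without ATV-TfR replicate 1 or control IgG replicate 1 (up to 0.455), the Fcgr4 call without ATV-TfR replicate 2 (0.311) and the Ccl8 call without ATV-TfR replicate 2 or control IgG replicate 1 (up to 0.113). With DESeq2 the calls on Ccr2, Ccl4, Fcgr4 and Ccl8 were lost, and without the barcodes of high doublet score those on Ccr2 and Ccl4.

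In ATV-CD98hc against control IgG 101 genes were higher (1.4%) and 10 lower (0.139%) with edgeR, 95 and 9 of them at least 2-fold more abundant in another class, and DESeq2 called 21. Mmp12, the macrophage elastase, had 101 and 82.3 CPM in ATV-CD98hc, 161 and 50.3 CPM in ATV-TfR and 1.01 and 6.40 CPM in control IgG. Its log2 difference of 4.60 ± 0.57 (edgeR adjusted p = 5.23e-05) passed under each of its 13 alternatives, and microglia held 0.570 CPM. The high bins alone gave no value for Mmp12, so the part of the mixture of bins in its difference was not tested. A few libraries carried it: 872 CPM in the low bin of ATV-TfR replicate 1, 214 CPM (low) and 209 CPM (medium) in ATV-CD98hc replicate 1 and 176 CPM in the high bin of its replicate 2, with 0 CPM in 11 of the 23 libraries. The matrix gene Fn1 (4.34 ± 0.61) and the chemokine Ccl9 (1.53 ± 0.37) were higher as well, but both calls were lost with DESeq2 and without ATV-CD98hc replicate 1, where the values were 2.31 and 0.27, and that on Ccl9 also without the barcodes of high doublet score. Endothelial cells hold 737 CPM of Fn1, and all 5 endothelial markers that could be tested, of 8 listed, were higher in the same comparison, among them Cldn5 (6.00 ± 0.84) and Flt1 (5.38 ± 0.80). The rule holds Cldn5 and Flt1 down in members. The Cldn5 call was lost with DESeq2 and without ATV-CD98hc replicate 2, and its lowest value over the pools left out was 3.72. The part of endothelial RNA in the Fn1 value was not tested. In ATV-TfR against ATV-CD98hc 108 genes were higher (1.5%) and 4 lower (0.0554%), DESeq2 called 38, and 0 passed in the high bins alone.

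The receptors that the antibodies bind were found in a smaller share of members than of endothelial cells. After thinning to 1000 UMIs a Tfrc UMI was found in 0.702% of members, 2.48% of other border macrophages, 0.786% of microglia and 28.6% of endothelial cells. For Slc3a2, which encodes CD98hc, the shares were 12.7%, 15.5%, 14.6% and 31.6%, and for Fcgrt 13.3%, 23.9%, 7.35% and 44.1%. The unthinned shares in members were 2.46% for Tfrc, 30.4% for Slc3a2 and 29.3% for Fcgrt, and those in other border macrophages 5.94%, 29.6% and 40.7%. The Tfrc and Slc3a2 shares of members lay below those of microglia, and neither was told from background. Each share pools all libraries, with treatment, genotype and bin not matched between classes. The control IgG pools gave 360 and 327 of the 1096 members. Slc3a2 was lower in members than in other border macrophages in 6 of 6 pools (log2 ratio -0.27 ± 0.18), and so were Fcgrt (-0.96 ± 0.46) and the inhibitory Fc receptor Fcgr2b (-0.46 ± 0.27), while the activating receptors Fcgr1 (0.40 ± 0.21) and Fcgr4 (1.67 ± 0.52) were higher in 6 of 6. Over all 4611 genes at 50 CPM or more, 22.7% were lower and 10.6% higher in 6 of 6 pools. Their median log2 ratio was -0.167, near that of Slc3a2.

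Other border macrophages changed over the bins as well, and in the edgeR fit no gene's slope passed as different from theirs. Here and in the medium to high changes below, members and others of a library entered as separate samples, without a library term. In 1 fit of both populations, 200 of 4992 genes rose (4.01%) and 161 fell (3.23%) over the bins in other border macrophages. Rad51b (1.44 ± 0.17), Mgl2 (-0.84 ± 0.22) and S100a6 (-1.77 ± 0.47) were called there with the sign they had in members, and Iigp1 (0.54 ± 0.25, edgeR adjusted p = 0.222) and Ccr2 (-0.55 ± 1.05) were not. The difference of the slopes passed for 0 of 4992 genes (0.0%) with edgeR, 281 had an unadjusted p under 0.05 and DESeq2 called 2; 15 genes passed with no filter on low counts and 4 at 12 or more MHC class II UMIs. For the change from the medium to the high bin, the difference between members and the others passed for 0 genes (0.0%) in ATV-TfR (341 at an unadjusted p under 0.05, DESeq2 0) and 0 genes (0.0%) in ATV-CD98hc (380 and 2, again with 1 medium library of members), and for 4 higher (0.0651%) and 7 lower genes (0.114%) in control IgG. DESeq2 gave no adjusted p to 5004 of 6146 genes in ATV-CD98hc and to 4289 of 6146 in control IgG. The control IgG set was 18 genes with the pool as a replicate block and 0 genes without control IgG replicate 1 or without the barcodes of high doublet score. Of its 4 higher genes 2, F13a1 and Cbr2, are rule genes and are no support for a difference; the other 2 were the ATP-gated channel P2rx7 (2.37 ± 0.47) and the adaptor Bank1 (2.18 ± 0.43). Ttr was among the lower genes (-11.80 ± 2.35). Without control IgG replicate 1, which leaves 1 library per bin, the values were 1.23 for P2rx7, 1.85 for Bank1 and -5.42 for Ttr.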

How the data were processed

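Single-cell libraries of sorted mouse brain cells were analysed from 1 pooled matrix of UMI counts, deposited by the authors unnormalized; Cell Ranger 7.1.0, mm10 (GRCm38) and Seurat 4 and 5 are named in the submitters' processing notes, without their order. The number at the end of each barcode was tied to its library through the deposited index of library names; how cells were called is not given in the sources used here. Kept barcodes had 500 or more genes, 800 or more UMIs and no more than 10% of UMIs from mitochondrial genes. The members and the gene lists were chosen with earlier results of these data known.

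Member counts were summed per library or pool and tested with edgeR 4.0.16 (quasi-likelihood, TMM factors, Benjamini-Hochberg adjustment over all genes tested, threshold 0.05) in R 4.3.3, in libraries with at least 20 members; DESeq2 1.42.0 was an alternative. P-values of the bin comparisons measure the spread between libraries, of which several come from 1 pool, and those between treatments the spread between pools, 2 per treatment. Tests of members against others do not use the pairing of both populations within a library. Named genes were the called genes of the 32 lists and, of the other called genes, up to 10 per direction with the largest change, at least 50 CPM in the higher group and no overlap between the groups compared; beside other border macrophages, 15 per direction with the same sign in all 6 pools. Cd9, Eif1, Plcl1 and Rnf213 and the statements on single libraries were picked after their values were seen. The slope over bins, its difference between members and others, and the high minus medium contrasts were chosen after seeing the data, because negative bins held few members. Shares were also taken after thinning to 1000 UMIs. Within a treatment, equal replicate numbers are the same pool per the labels; correlations of same-pool deviations were 0.00972, 0.00891 and -0.155 in ATV-TfR, -0.0361 in ATV-CD98hc and 0.226, 0.280 and 0.456 in control IgG over 3887 genes. Doublets were not removed: Scrublet scores (scanpy 1.11.5) above percentile 94 of each library marked 5.47% of members and 5.63% of kept barcodes, and leaving them out was an alternative. The cutoff largely sets the share of kept barcodes in advance. The share of members marked differed between libraries, from 25.0% in ATV-TfR negative replicate 2 to 0% in both ATV-TfR high libraries. Of members, 74 (6.75%) had a barcode sequence also seen in another library, beside 6.14% of kept barcodes, and 0 shared it with another member. Depth per library is in the opening; intervals are exact Clopper-Pearson at 95% and cover counting error only. The scripts were tested on simulated data. Alternatives were normalization, filters, thresholds, replicate block, bins and leaving out each pool. Results of some genes are not reported here.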

Additional observations from a re-analysis of the deposited data

Results flagged for a closer look

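The change in member numbers from the negative to the high bin differed between ATV-TfR and ATV-CD98hc by -3.45 ± 0.79 on the log2 scale (edgeR adjusted p = 0.000270), a difference between groups under the same contrast. In control IgG, 11 genes differed between members and other border macrophages in their change from the medium to the high bin, and 0 did without control IgG replicate 1; 2 of the 11, F13a1 and Cbr2, are genes of the rule that chose the cells.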

How the results depend on the processing

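Of 782 values of 57 named gene results under alternatives, 600 kept their direction and side of the threshold, 182 kept the direction but lost the call and 0 reversed. For member numbers, the ATV-TfR change was -1.27 at 12 or more MHC class II UMIs, -1.76 with barcodes thinned to 2000 UMIs and 3.4 (reversed) without endothelial cells in the offset, and the difference between both ATVs was -2.49 in male cells, with 3 male members in the ATV-CD98hc negative bin. Leaving out pools gave -0.863 to -0.823 in ATV-TfR, 2.51 to 3.55 in ATV-CD98hc, 8.28 to 8.60 in control IgG and -4.4 to -3.36 for the difference.

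Counts of called genes moved as follows. From negative to high in ATV-TfR: DESeq2 118, at least 50 CPM 136, 12 MHC class II UMIs 154, without high Scrublet scores 1, and 37 to 279 without single pools. High minus medium in ATV-CD98hc: no filter 7, pools left out 0 to 4. The same in control IgG: DESeq2 0, no filter 41, at least 50 CPM 3, without high Scrublet scores 1, at least 10 cells 5, pools left out 1 to 16. Mean slope: 12 MHC class II UMIs 195, at least 10 cells 529, pools left out 23 to 240; slope of other border macrophages, pools left out 98 to 226. ATV-TfR against control IgG: DESeq2 273, no filter 798, at least 50 CPM 148, without high Scrublet scores 241, high bin 7, pools left out 346 to 572. ATV-CD98hc against control IgG, in the same order: 21, 224, 57, 69, 7, and 93 to 171. ATV-TfR against ATV-CD98hc: 38, 247, 64, 3, 0, and 95 to 204. Members against others, medium to high: ATV-TfR no filter 20; ATV-CD98hc DESeq2 2, no filter 24, at least 10 cells 2; control IgG DESeq2 19, no filter 65, 12 MHC class II UMIs 3, without high Scrublet scores 0, pools left out 0 to 10. Slope difference: DESeq2 2, no filter 15, 12 MHC class II UMIs 4, pools left out 0 to 0. The cause of these moves was not tested.

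With the pool as a replicate block, high minus medium gave 2 genes in ATV-CD98hc and 20 in control IgG, the control IgG difference from other border macrophages 18, the ATV-TfR high minus negative comparison 310, the mean slope 370, and the treatment comparisons 421, 143 and 150; member numbers changed by -0.83, 2.64 and 8.25. Straight trends of the member share without single pools, which leave 1 library per bin, ran from -0.575 to -0.307, -0.253 to 0.233 and 0.267 to 1.18. Genes of the negative bins of ATV-CD98hc and control IgG were not tested, and control IgG cell numbers without replicate 2 were not run.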
